A study of Gossypium barbadense and Gossypium hirsutum with 4 samples.

Results

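The probe sets described here measure transcripts of 3 NBS-LRR immune receptor genes in elongating cotton fibers. They are GhiAffx.41878.1.S1_at, annotated as a TIR-NBS-LRR resistance protein, GhiAffx.31262.2.A1_a_at, annotated as a CC-NBS-LRR resistance protein, and Ghi.8619.1.A1_at, annotated as a BED finger-NBS-LRR resistance protein. They were selected by name, together with every probe set that shares their prefix and cluster number, from 24029 probe sets on the array. The table used here holds 0 further probe sets of these clusters, so that the set has 3 members. The names came from the study's list of probe sets that differed between the genotypes on these same arrays, in rows that hold only probe sets higher in *Gh*. The direction of the members' differences was therefore fixed by the choice, and their values are given as a description with no test.

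NBS-LRR proteins are intracellular receptors of plant immunity. A nucleotide-binding domain acts as a switch between an inactive and an active state, and the leucine-rich repeats take part in the recognition of pathogen effectors or of changes they cause in host proteins. The domain at the N terminus defines the classes, with a TIR domain or a coiled coil (CC) in the largest ones, while a BED zinc finger is found in a smaller class. The family is large in plant genomes, it varies in sequence and gene content among species and cultivars, and many members are transcribed at a low level in the absence of infection.

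The fibers came from 2 cultivated allotetraploid cottons, *G. barbadense* variety VH8-4602 (*Gb*) and *G. hirsutum* variety Guazuncho 2 (*Gh*), which are parents of mapping populations. Plants of both genotypes received no treatment and grew in a glasshouse, and the labels give the fiber age as 11 days post anthesis (dpa). Each genotype was measured on 2 Affymetrix cotton arrays, *Gb* 1 and *Gb* 2 against *Gh* 29 and *Gh* 30, each with RNA pooled from 4 plants, so that variation among single plants was not measured and each species is represented by 1 variety. Signals are on the log2 scale after gcrma normalization, and differences are *Gb* minus *Gh*, so that a negative difference is a higher signal in *Gh*. Since RNA of whole fiber samples was hybridized, fewer expressing cells and less RNA per cell cannot be told apart.

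The 4 arrays were alike in their overall level, with medians of 4.26 to 4.36 and 51.1% to 51.6% of probe sets at or above a log2 signal of 4, taken here as the floor for a measurable signal. The 17 tag control probe sets, which carry synthetic sequences with no plant target, ranged from 1.73 to 2.29 and gave a second measure of background. All 6 probe sets named for fiber markers (expansins, arabinogalactan protein and lipid transfer proteins) were at or above the floor on all 4 arrays. They came from the same rows of the list as the members, and their differences ranged from -4.90 to -1.01, with 5 of 6 called by limma (Benjamini-Hochberg adjusted over all probe sets, threshold 0.05) against 20.3% of all probe sets. The 2 probe sets named for photosystem proteins, markers of green tissue, were also in the rows of the list higher in *Gh*. The photosystem I subunit measured 2.48 and 2.56 in *Gb* and 4.93 and 4.09 in *Gh*, and the photosystem II protein CP43 measured 6.14 and 6.46 in *Gb* and 7.34 and 7.80 in *Gh*. The signal of 5′ minus 3′ probe sets of control transcripts is a measure of RNA integrity. Its mean was lower in *Gb* by 0.70 for actin, 0.84 for ss1 and 0.30 for ubq11. For actin it was -3.03 and -3.07 in *Gb*, -2.52 on *Gh* 29 and -2.18 on *Gh* 30. For ss1 it was -4.87 and -5.04 in *Gb*, -4.62 on *Gh* 29 and -3.62 on *Gh* 30. For ubq11 it was -1.94 and -1.80 in *Gb*, -1.79 on *Gh* 29 and -1.36 on *Gh* 30. A large part of the mean gaps for ss1 and ubq11 thus came from *Gh* 30. The part of fiber marker level, green tissue or RNA integrity in the differences described below was not tested.

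The TIR-NBS-LRR probe set was at background in *Gb* and bright in *Gh*. Its log2 signal was 2.02 on *Gb* 1 and 1.95 on *Gb* 2, against 9.42 on *Gh* 29 and 9.22 on *Gh* 30. Both *Gb* values lay inside the range of the tag controls, with 5 and 6 of the 17 controls at or above them. The mean was 1.98 ± 0.05 (SD, n = 2) for *Gb* and 9.32 ± 0.14 (SD, n = 2) for *Gh*, a nominal difference of -7.34 (SE 0.09). Since *Gb* gave no measurable signal, the ratio of *Gh* to *Gb* has only a lower bound of 39.9-fold, which is the ratio of *Gh* to the floor.

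On the linear scale the same TIR-NBS-LRR probe set read 4.06 and 3.85 in *Gb* and 685 and 597 in *Gh*. Within each array its signal stood above 8.0% and 5.4% of all probe sets on the *Gb* arrays, and above 79.2% and 77.8% on the *Gh* arrays. The genotypes were separated by 7.20 between their nearest arrays, whereas replicate arrays differed by 0.07 in *Gb* and 0.20 in *Gh*. It was 1 of 24 probe sets that were below the floor on both *Gb* arrays with a *Gh* mean as high as its own or higher.

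The CC-NBS-LRR probe set was brighter in *Gh* and faint, but above background, in *Gb*. It measured 4.26 on *Gb* 1 and 4.10 on *Gb* 2, and 7.29 on *Gh* 29 and 7.38 on *Gh* 30. The *Gb* values exceeded the brightest tag control of their array by 1.97 and 1.84, and they lay just over the floor, close to the middle of the array (percentiles 50.0 and 49.2). The mean was 4.18 ± 0.11 (SD, n = 2) for *Gb* and 7.33 ± 0.06 (SD, n = 2) for *Gh*, a difference of -3.16 (SE 0.08), or 8.91-fold. The nearest arrays of the genotypes were 3.03 apart, and replicates differed by 0.16 in *Gb* and 0.09 in *Gh*. The suffix of this probe set (_a_at) marks probes shared by alternative transcripts of 1 gene in the array design, so that its signal is a sum over such transcripts.

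The BED finger NBS-LRR probe set was bright in *Gh* and was the least reproducible of the 3 members in *Gb*. Its signal was 3.83 on *Gb* 1, below the floor, and 4.85 on *Gb* 2, above it, against 8.34 on *Gh* 29 and 8.19 on *Gh* 30. Both *Gb* values were over every tag control, by 1.54 and 2.59. The mean was 4.34 ± 0.73 (SD, n = 2) for *Gb* and 8.27 ± 0.11 (SD, n = 2) for *Gh*, a difference of -3.93 (SE 0.42), or 15.2-fold on nominal values that include *Gb* 1 below the floor. The groups did not overlap, with 3.34 between the nearest arrays. Leaving out *Gb* 1 gave a difference of -3.42 and leaving out *Gb* 2 gave -4.44.

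**Figure D1:**
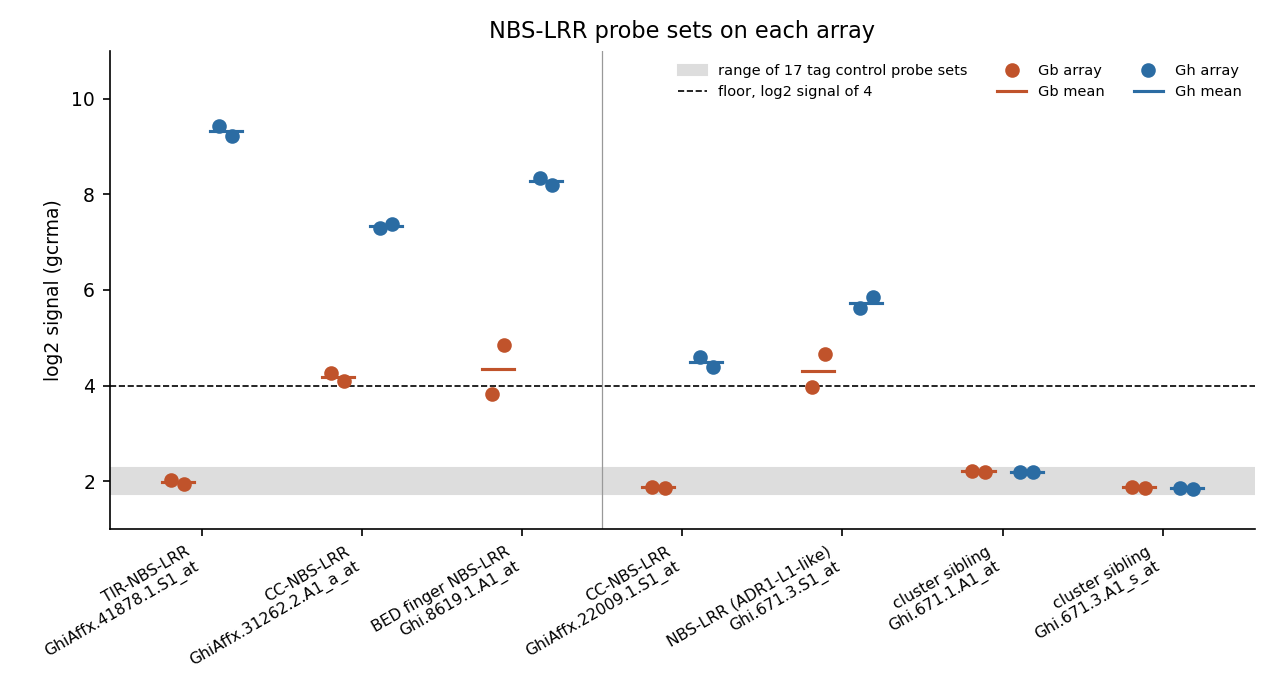
Log2 signal (y axis) of the NBS-LRR probe sets on each array, with *Gb* arrays in orange, *Gh* arrays in blue and bars at the genotype means. The grey band is the range of the 17 tag controls and the dashed line the floor of 4. The TIR-NBS-LRR probe set falls from above 9 in *Gh* into the grey band in *Gb*, while the CC and BED finger members stay over the band in *Gb*, and the 2 cluster siblings at the right lie in the band on all arrays.

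The gap between the *Gb* arrays of the BED finger probe set was 1.03, and among the 1016 probe sets with a *Gb* mean within 0.5 of its own the median gap was 0.19, with 4.13% showing a gap as large. In *Gh*, its gap of 0.15 was as large or larger in 47.3% of 1711 like probe sets. The CC-NBS-LRR member was ordinary on this measure, since 53.6% of like probe sets in *Gb* and 69.2% in *Gh* had a gap as large. For the TIR-NBS-LRR member the *Gb* gap of 0.07 lay within background signal, where the median gap of 7130 like probe sets was 0.02 and 5.93% had a gap as large, and 27.0% of like probe sets matched or exceeded its *Gh* gap.

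**Figure D2:**
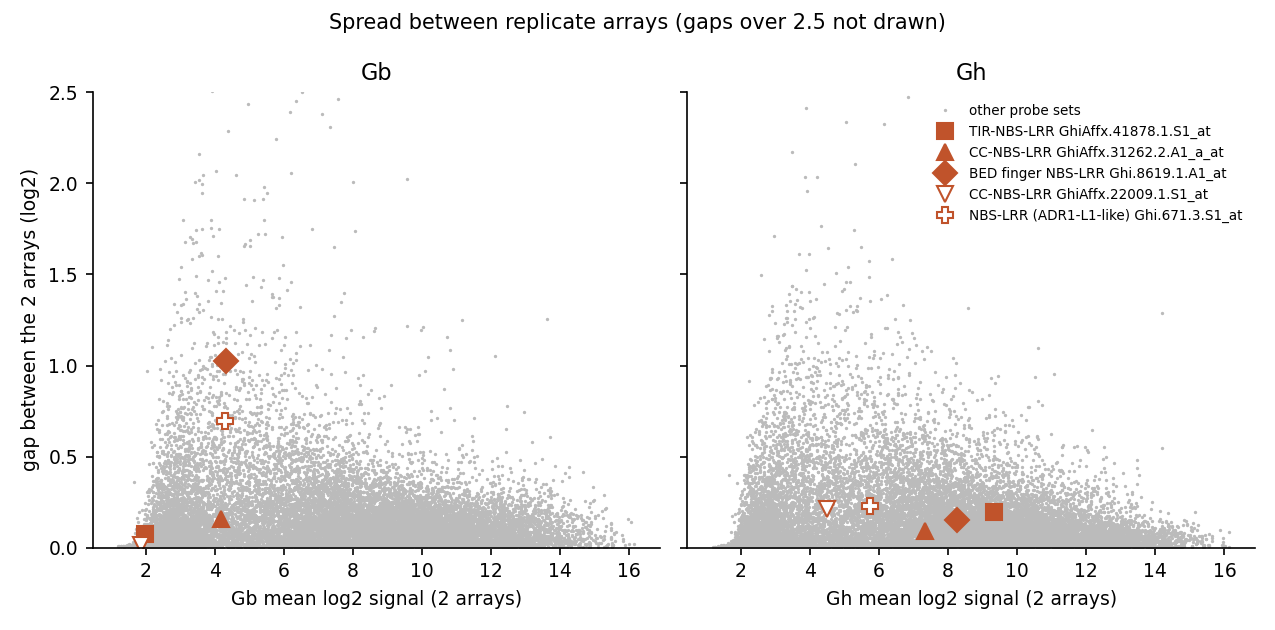
Gap between the 2 arrays of a genotype (y axis, log2) against the mean log2 signal of that genotype (x axis), for *Gb* at the left and *Gh* at the right, with all other probe sets in grey. Of the marked NBS-LRR probe sets, the BED finger member has the widest *Gb* gap at 1.03, and in *Gh* all marked gaps are under 0.25.

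By the floor of 4, a presence in *Gh* with absence in *Gb* held for 1 of the 3 members, the TIR-NBS-LRR probe set. The same pattern was shown by 342 probe sets of the array (1.42%), and the reverse pattern by 235. With the floor raised to 5, all 3 members met it, because the CC and BED finger members lay between 4 and 5 on at least 1 *Gb* array. Both *Gh* arrays exceeded both *Gb* arrays for 3 of 3 members and for 19.7% of all probe sets. Nothing is read from these shares, since the members were chosen on this contrast. A signal at background is no proof that the gene is absent or silent in *Gb*, and how well the probes match *Gb* transcripts was not tested.

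The names of all 3 members carry the prefix of *G. hirsutum* sequences, the source of their probes. Of the probe sets with the prefix GhiAffx, 1.98% were measurable in *Gh* and not in *Gb*, and 1.39% the reverse. With the prefix Ghi these shares were 1.65% and 1.01%. Probe sets from *G. raimondii*, a diploid relative of the D-genome ancestor, were at 0.76% and 0.61% with the prefix Gra and at 0.47% and 0.52% with the prefix GraAffx. The other classes were small. Of 36 probe sets from *G. barbadense* (GbaAffx), 0 showed either pattern. Of 69 from *G. arboreum* (GarAffx), 0 were measurable in *Gh* alone and 1 in *Gb* alone. Presence in *Gh* alone was the more frequent pattern with the prefixes GhiAffx, Ghi and Gra, and over the whole array, and no difference between the classes was tested. These are counts over probe sets, which are not independent of each other.

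**Figure D3:**
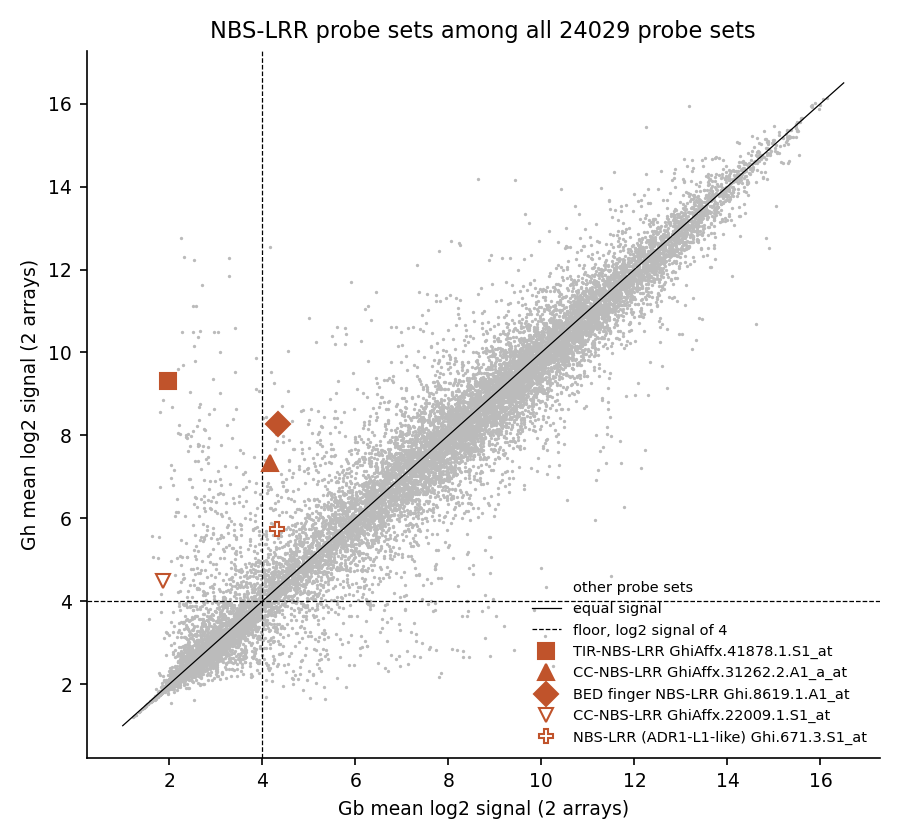
Mean log2 signal in *Gh* (y axis) against *Gb* (x axis), 2 arrays each, for 24029 probe sets in grey, with the 3 members as filled symbols and 2 other NBS-LRR names as open symbols. Dashed lines mark the floor of 4 and the diagonal marks equal signal. The TIR-NBS-LRR member (1.98 in *Gb*, 9.32 in *Gh*) lies in the sparse region left of the floor, and the CC and BED finger members lie just right of it.

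The rows of the list that were read, its first 1159, held 2 further probe sets with an NBS-LRR name. Other NBS-LRR probe sets of the array, including any higher in *Gb*, were not named here. A second probe set named as a CC-NBS-LRR resistance protein measured 1.88 and 1.86 in *Gb* and 4.59 and 4.38 in *Gh*, a nominal difference of -2.62 (SE 0.09). It shared with the TIR-NBS-LRR member a *Gb* signal among the tag controls, of which 13 and 12 were at or above it, but its *Gh* signal was only just over the floor and its ratio was bounded only as at least 1.40-fold. Its cluster holds no other probe set.

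A probe set named only as an NBS-LRR resistance protein and described in the array annotation as weakly similar to ADR1-L1, a helper NBS-LRR protein in Arabidopsis that acts downstream of other immune receptors, measured 3.96 and 4.66 in *Gb* and 5.62 and 5.85 in *Gh*. The groups did not overlap, with 0.96 between the nearest arrays, and the difference was -1.42 (SE 0.30), or 2.68-fold on nominal values, since *Gb* 1 was just below the floor. In the limma fit over all probe sets, which reuses the values that put it on the list, the Benjamini-Hochberg adjusted p was 0.068. Leaving out 1 array moved the difference between -1.77 (without *Gb* 2) and -1.08 (without *Gb* 1). These values are given as a description. Its gap between the *Gb* arrays was 0.70, and 11.7% of like probe sets had a gap as large.

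The cluster of this ADR1-L1-like probe set was the one with an NBS-LRR name and further probe sets, and they did not follow the named one. One sibling measured 2.22 and 2.20 in *Gb* and 2.19 and 2.18 in *Gh*, a difference of 0.02 (limma adjusted p = 0.493). The other measured 1.88 and 1.87 in *Gb* and 1.85 and 1.85 in *Gh*, a difference of 0.02 (limma adjusted p = 0.490). Both lay in the range of the tag controls on all 4 arrays, so that neither gave a level with which to compare the genotypes. In the array design the letter S or A of a name gives the orientation of the target, and both differ in it from the named probe set. Among the members, the CC and BED finger probe sets carry the letter A and the TIR probe set the letter S. Which strand each of them detects was not tested.

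The members had no cluster siblings, so agreement within clusters was described over the array. Among 75 probe sets like the TIR-NBS-LRR member, below the floor on both *Gb* arrays with a *Gh* mean of at least 7, 17 had a sibling, with 82 siblings in 16 clusters. Of these siblings 32 (39.0%) were below the floor on both *Gb* arrays, 47 at or above it on both and 3 mixed. However, 64 of the 82 belonged to a single cluster of 65 probe sets, and without it 17 of 18 siblings (94.4%) were below the floor on both *Gb* arrays. Few of those 18 were informative, since 5 were measurable on both *Gh* arrays, and of these 4 were below the floor on both *Gb* arrays and 1 was above it. Without the large cluster, 16 probe sets in 15 clusters had siblings, so 1 cluster held 2 probe sets of the selection. Each of the 2 was counted as the sibling of the other, and was below the floor in *Gb* by the choice. Clusters of 1 probe set, as those of the members, made up 83.7% of 19980 clusters.

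The probe sets closest to each member over the 4 arrays, by Euclidean distance of log2 signals, were then listed. For the TIR-NBS-LRR member they were Ghi.520.1.S1_at, a naphthoate synthase, at 0.49, the unnamed Ghi.9030.1.S1_at at 0.67, and Ghi.5940.1.A1_at, similar to Arabidopsis actin 11, a cytoskeletal protein, at 0.79. The naphthoate synthase probe set measured 2.25 and 2.14 in *Gb* and 9.72 and 9.47 in *Gh*. Only 4 probe sets lay within a distance of 1, against 24 for the CC-NBS-LRR member and 9 for the BED finger member.

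The nearest to the CC-NBS-LRR member were the unnamed Ghi.6678.1.A1_at at 0.15, Ghi.3784.2.S1_s_at, similar to an unknown protein, at 0.53, and Ghi.3459.1.A1_at, an ATP-binding cassette protein, at 0.54. ATP-binding cassette proteins are mostly membrane transporters. The nearest to the BED finger member were GhiAffx.33672.1.S1_at, annotated only as a protein, at 0.51, Ghi.3762.1.A1_s_at, not named here, at 0.60, and GraAffx.15661.1.S1_s_at, without a name, at 0.68. All 3 were higher on *Gb* 2 than on *Gb* 1, as the BED finger member was, with 3.49 and 4.55 for GhiAffx.33672.1.S1_at, 3.74 and 4.89 for Ghi.3762.1.A1_s_at and 4.49 and 4.79 for GraAffx.15661.1.S1_s_at. Distance was measured over these same 4 arrays, so the shared order of the *Gb* arrays follows in part from the choice of neighbours. All neighbours listed were also higher in *Gh*, which follows from the same choice.

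The rows read also named 21 probe sets of other immune or receptor genes, all higher in *Gh* by the choice of rows. With the 5 NBS-LRR names, limma called 21 of 26 names, against 20.3% of all probe sets, or 8.87% counting those higher in *Gh*. The median difference was -1.82 for the names and 0.04 over all probe sets. These figures follow from the selection on the same contrast and nothing is read from them. Of the 26, 7 were measurable in *Gh* alone, 2 of which had an NBS-LRR name, against 1.42% of all probe sets, and this count too follows from the selection.

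Among leucine-rich repeat names limma called 5 of 6, against 20.3% of all probe sets, and 1 of the 5 was below the floor on all 4 arrays, so that its call carries no measured level. Ghi.10609.1.S1_s_at measured 7.43 and 7.22 in *Gb* and 12.18 and 12.04 in *Gh*, a difference of -4.78 (27.5-fold). Gra.1351.1.A1_s_at measured 7.79 and 7.79 in *Gb* and 12.51 and 12.36 in *Gh*, a difference of -4.65. In both, *Gb* was well over background, unlike the TIR-NBS-LRR member. Gra.1351.1.S1_s_at, of the same cluster and the other orientation, was below the floor on all arrays, with 2.08 and 2.06 in *Gb* and 3.54 and 3.94 in *Gh*. GhiAffx.6315.1.S1_at was below the floor in *Gb* (2.82 and 2.92) and above it in *Gh* (5.23 and 5.03).

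Receptor kinases, which sense ligands at the cell surface, had 6 of 7 names called, against 20.3% of all probe sets. Ghi.4636.1.A1_s_at, a receptor serine/threonine kinase, measured 4.27 and 4.11 in *Gb* and 9.53 and 9.55 in *Gh*, a difference of -5.35 (40.8-fold). Its *Gb* level was faint and over background, as for the CC-NBS-LRR member. Ghi.336.1.S1_at, a receptor kinase-like protein, measured 2.39 and 2.35 in *Gb* and 5.71 and 5.11 in *Gh*. Ghi.8875.1.S1_at, named for CLAVATA1, a kinase of meristem signaling in Arabidopsis, differed by -1.73.

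Ghi.3639.1.A1_at, named for BAK1, a co-receptor of surface immune and brassinosteroid receptors in Arabidopsis, measured 6.23 and 6.59 in *Gb* and 8.02 and 8.01 in *Gh*, a difference of -1.61 (3.04-fold). The brightest name of the group in *Gb* was Ghi.5955.1.A1_s_at, a nodulation receptor kinase, with 10.98 and 11.00 in *Gb* and 12.39 and 12.27 in *Gh*. The siblings Ghi.336.1.A1_at and Ghi.8875.1.A1_s_at, of the other orientation, were at background on all arrays, with genotype means of 2.06 and 2.04 for the former and 2.05 and 2.02 for the latter.

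Both WRKY names, transcription factors with many roles in defence signaling, were called, against 20.3% of all probe sets. GhiAffx.21242.1.A1_at measured 3.58 and 3.06 in *Gb* and 6.26 and 5.62 in *Gh*, and Ghi.9568.1.S1_at, similar to Arabidopsis WRKY40, differed by -1.91 (3.75-fold). Of the 6 defence names 4 were called, against the same 20.3%, and these counts too follow from the selection. Ghi.5471.1.S1_at, a MYC transcription factor of the type that mediates jasmonate responses, measured 5.66 and 6.69 in *Gb* and 9.04 and 8.98 in *Gh*, a difference of -2.84 (7.15-fold). Ghi.3679.2.A1_s_at, named for ethylene response factor 4, differed by -1.95 and was below the floor in *Gb*.

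GhiAffx.62793.1.S1_at, a salicylic acid-induced protein, differed by -1.43 (2.69-fold). The NADPH oxidase Ghi.4137.1.S1_at, of the enzyme family that produces the oxidative burst, differed by -1.58 and did not pass (limma adjusted p = 0.0825). The brightest defence name, the thaumatin-like Ghi.8826.1.S1_s_at of the PR-5 family, measured 9.13 and 8.45 in *Gb* and 10.05 and 10.03 in *Gh*, a difference of -1.25 that did not pass (limma adjusted p = 0.0769). Over all immune names, 6 cluster siblings were outside the rows of the list, and limma called 0 of them at a median difference of 0.02. Siblings that the rows hold are not counted here, so this count is partly fixed by the choice as well. Of the 6, 5 were below the floor on all arrays. The other, Ghi.8826.2.S1_at, was outside the rows although it differed by -1.32.

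**Figure D4:**
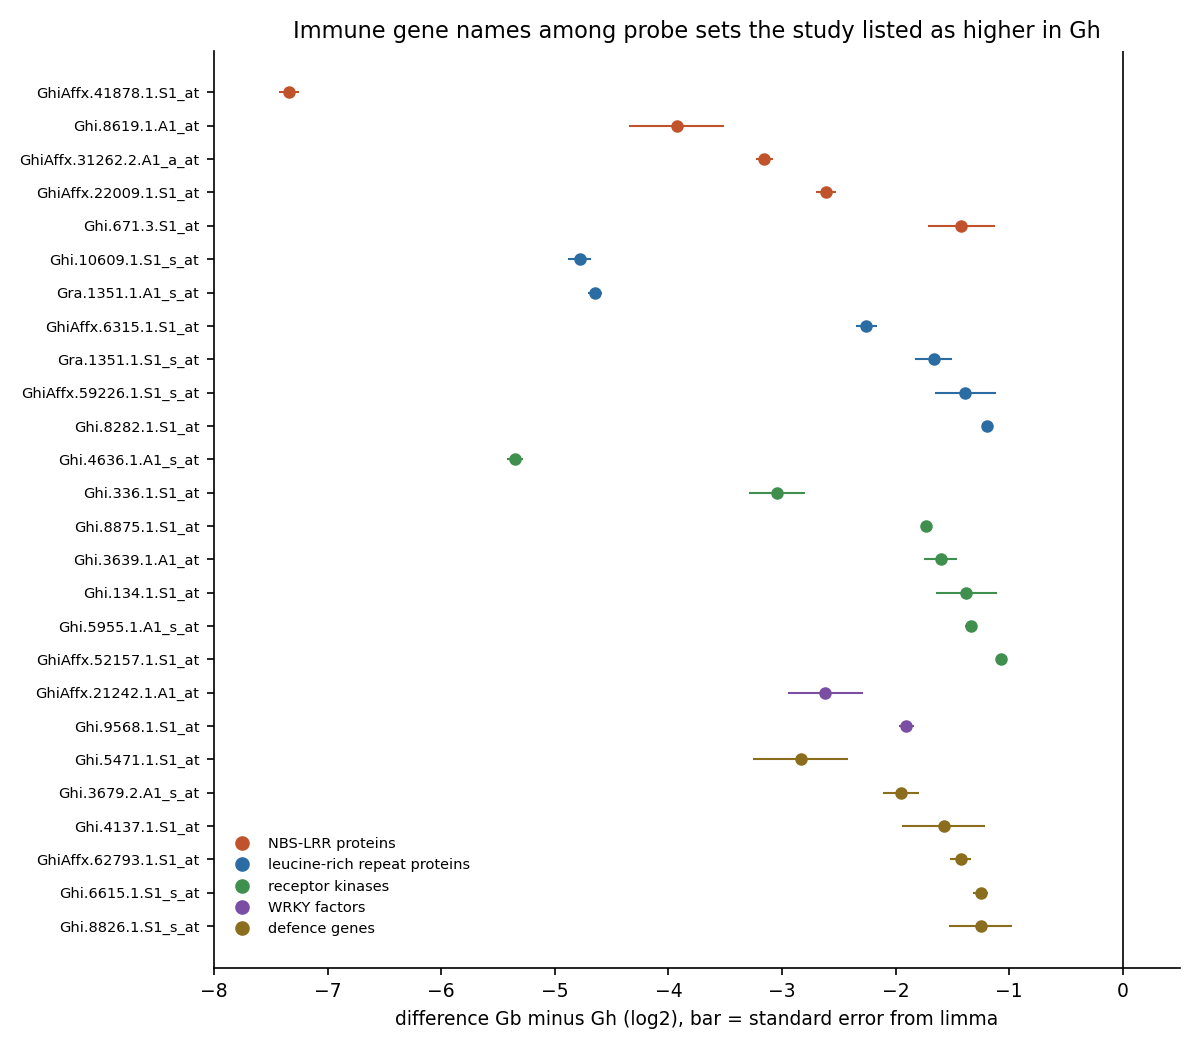
Difference *Gb* minus *Gh* on the log2 scale (x axis, with bars for the standard error from limma) of the 26 probe sets with an immune or receptor name, coloured by group. All lie left of 0 because the rows of the list hold only probe sets higher in *Gh*. Where both *Gb* arrays were below the floor, as for the TIR-NBS-LRR member at -7.34, the plotted value is nominal, and the BED finger member has a wide error bar (SE 0.42).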

How the data were processed

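The authors processed the 4 arrays jointly with gcrma, which the submitters' processing notes also name, and deposited log2 signals of 24132 probe sets. The sources used here do not give its version. Gcrma equalizes the array distributions, so a change shared by most transcripts would not be seen. The 103 control probe sets were left out, and 24029 were fitted with limma 3.58.1 in R 4.3.3 (default eBayes, no covariate, two-sided, Benjamini-Hochberg, threshold 0.05). An exact permutation test of 2 arrays against 2 could not go below 0.333.

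The members and lists were chosen with earlier results of these data known, and the use of the tag controls as background was chosen after their values were seen. Names came from the first 1159 rows of the study's list of differential genes. Its columns of intensities, fold changes and p-values were not used. The reference table of *G. barbadense* genes matched 0 probe set names. The text names the members, the other NBS-LRR names with their clusters, the 3 nearest probe sets of each member, and up to 4 names per immune list with the largest difference, with the brightest and the faintest. The remaining names and siblings were chosen after their values were seen. Alternatives were other tests, adjustments, filters, scalings and floors, and leaving out each array. The limma fit was first tested on simulated data. It recovered 30% of changes of 1 and 60% of changes of 2 on the log2 scale. Among 23829 unchanged probe sets it made 5 false calls. The methods' t-test after Benjamini-Hochberg, with the variance limits set here, made 636. Summaries and plots used Python 3.11.15 and matplotlib 3.10.9.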

Additional observations from a re-analysis of the deposited data

How the results depend on the processing

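The members' differences kept their direction under every setting tried, and leaving out an array moved them between -7.44 and -7.24 (TIR), -3.24 and -3.08 (CC) and -4.44 and -3.42 (BED finger). Scaling to the hybridization controls, which lowered the median difference of all probe sets from 0.04 to -0.26, gave -7.63 for the TIR and -3.45 for the CC member. Subtracting array medians moved that median to 0.12. Calls between the genotypes were 4880, of which 2131 were higher in *Gh* (given in parentheses below), 7328 (3345) by the methods' t-test after Benjamini-Hochberg, 33 (23) with limma after Bonferroni, 7747 (5757) with the hybridization scaling, and 2542 to 3947 (1164 to 1956) without 1 array. The lowest counts were 2542 and 2798, without *Gb* 2 and *Gb* 1. Of 26 immune names 21 were called, and 0 with limma after Bonferroni.

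The lower bound for the TIR member was 79.9-fold with the floor at 3 and 20.0-fold at 5, and the count of members measurable in *Gh* alone rose from 1 to 3 at a floor of 5. The share of siblings below the floor in *Gb* was 39.0%, 26.0% at a floor of 3, 52.9% at 5 and 94.4% without the largest cluster, an alternative chosen after seeing the data. Each share includes siblings that met the selection themselves. The ADR1-L1-like probe set passed with the intensity trend (limma adjusted p = 0.0283), the filter at 5 (0.00923) and array medians (0.0412). It also passed with the hybridization scaling and the methods' t-test. It did not pass with the robust prior (limma adjusted p = 0.0807), cyclic loess (0.0905) or limma after Bonferroni. The paper gives no variance limits for its t-test, so they were set here, and these limits left out the BED finger member. The study's own list of differential genes holds this member. Siblings of the members gave no value under any setting, since none is in the table used. No paired analysis was possible because the arrays of the genotypes share no replicate number. The causes of these changes were not tested. The precision is limited by the number of arrays, 2 per genotype, and where both arrays of a genotype were below the floor a difference has no measured size.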

Other observations

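Several immune names differed between the *Gb* arrays by more than 0.6 on the log2 scale, and they did not all differ in the same direction. This was noticed after the values were seen and was not tested. The BED finger member (gap of 1.03), the MYC factor Ghi.5471.1.S1_at (1.04) and the ADR1-L1-like probe set (0.70) were higher on *Gb* 2. The NADPH oxidase Ghi.4137.1.S1_at (0.87), the thaumatin-like Ghi.8826.1.S1_s_at (0.69) and its sibling Ghi.8826.2.S1_at (1.70) were higher on *Gb* 1. This sibling measured 6.80 and 5.10 in *Gb* and 7.35 and 7.20 in *Gh*, and its difference of -1.32 did not pass (limma adjusted p = 0.308). On the *Gh* arrays the gaps of the same probe sets were 0.24 or less, but they had been picked for a wide *Gb* gap. Other immune names had the wider gap in *Gh*. It was 0.65 in *Gh* and 0.13 in *Gb* for GhiAffx.59226.1.S1_s_at, and 0.60 and 0.04 for Ghi.336.1.S1_at. For GhiAffx.21242.1.A1_at it was 0.64 in *Gh* and 0.52 in *Gb*.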
